A study of Mus musculus with 2 samples.

Results

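The S phase and DNA replication genes are 42 genes that cells use to copy their chromosomes. They were taken by gene symbol from the 32285 genes in the deposited matrices of a single-cell RNA sequencing study of mouse retina at postnatal day 7. The genes were chosen by name and not by a measured value, though with earlier results of these data known, and all 42 were found. By role they comprise 9 genes of the replicative helicase and origin licensing, 7 of synthesis at the fork, 5 of nucleotide supply, 9 of chromatin and histone supply, 8 of the replication checkpoint and repair, and 4 regulators of the cycle.

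The control library came from mice of genotype Mettl14 fl/fl or fl/wt, and the Mettl14-cKO library from mice of genotype Mettl14 fl/fl with an Egfp/Cre transgene. Mettl14 is a subunit of the enzyme complex that places N6-methyladenosine on messenger RNA. Both groups carried at least 1 floxed Mettl14 allele, and the Cre transgene, driven by a promoter active in retinal progenitors, was carried by the Mettl14-cKO mice. Each genotype was represented by 1 library of dissociated retinal cells, and the number of animals in each is not given in the sources used here. No test between genotypes was therefore possible: intervals are exact 95% Poisson or binomial intervals of the counts, they cover counting error only, and cells were not treated as replicates.

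Before S phase, the origin recognition complex and CDC6 load the MCM2 to MCM7 ring onto DNA, and CDC45 and the GINS complex turn it into the active helicase. At the fork, DNA polymerases work with the sliding clamp PCNA, while ribonucleotide reductase and thymidylate enzymes supply nucleotides and histone chaperones repackage the new strands. Many of these genes are transcribed under E2F factors as cells leave G1 phase, and in the mouse retina they mark progenitors, which run out in the first postnatal days as rods, bipolar cells and Müller glia are born. Because 3' UMI counts (unique molecular identifiers, 1 per captured transcript end) do not scale with transcript length, levels are compared between libraries and between cells for each gene, not between genes.

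After filtering, 10575 control cells with a median of 3386 UMIs and 11865 Mettl14-cKO cells with a median of 3059 UMIs were kept, from barcodes with at least 1000 UMIs. Both libraries held 33 kept barcodes in common, each counted in its own library. Mettl14 itself stood at 27.3 CPM (UMIs per 1000000 UMIs of the summed cells; 25.8 to 28.8; 1338 UMIs) in the control library and 14.5 (13.4 to 15.6; 705 UMIs) in the Mettl14-cKO library, a ratio of 0.532. The floxed exons are not named in the sources used here, so a transcript that lost them may still be counted at its 3' end. The labelled tissue was matched by its markers: all 8 rod, 9 bipolar, 7 amacrine and 8 Müller glia genes used for gating were detected in both libraries. Summed rod markers stood at 15085 CPM in control and 8532 in Mettl14-cKO cells, and ribosomal protein genes took 10.1% and 12.1% of the UMIs.

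A member was called higher or lower when the log2 ratio of its levels was at least 0.32 in size, the Poisson intervals did not overlap, and it had at least 30 UMIs over both libraries. Where a member had under 30 control UMIs, Mettl14-cKO UMIs were needed, which made the minimum easier to meet for members higher there. Replication genes differed in both directions over all kept cells, and their sum was 1.01 times that of control. Summed over the 42 members, the level was 704 CPM (696 to 711) in control cells and 712 (704 to 719) in Mettl14-cKO cells (interval of the ratio 0.997 to 1.03). Of the members, 20 of 42 were called higher in Mettl14-cKO cells, where 19.4% of the 15923 measured genes were called higher, and 3 were called lower, where 18.6% of genes were. The median log2 ratio (Mettl14-cKO over control throughout) was 0.36 over the members and -0.02 over all measured genes. Cdkn1a, which encodes the cyclin-dependent kinase inhibitor p21 that also binds PCNA, is no member and stood at 28 and 117 CPM.

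Helicase genes were the most uniform group: 8 of its 9 members were called higher, and their summed level was 63.9 CPM in control and 88.5 in Mettl14-cKO cells (ratio 1.38, 1.32 to 1.45). Mcm3 showed the largest ratio of the 6 MCM subunits, at 146 UMIs (2.97 CPM) in control and 310 UMIs (6.37) in Mettl14-cKO cells (log2 1.10, 0.81 to 1.39). Mcm5 stood at 121 and 215 UMIs (log2 0.84) and Mcm2 at 176 and 274 UMIs (log2 0.65). Smaller ratios were seen for the other three: the log2 ratio was 0.48 for Mcm6 (396 and 549 UMIs), 0.37 for Mcm4 (479 and 612 UMIs) and 0.36 for Mcm7 (1477 and 1880 UMIs). The intervals of all 6 subunits lay apart between the libraries. The loader Cdc6 was found in 14 and 34 UMIs (log2 1.29) and the GINS subunit Gins2 in 232 and 336 UMIs (log2 0.55). Cdc45, which completes the helicase, was the member of this group without a call, at 95 and 92 UMIs.

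Fork synthesis genes did not share that pattern. Fen1, the flap endonuclease that trims Okazaki fragments, was called higher, at 638 UMIs (13 CPM) in control and 1431 UMIs (29.4 CPM) in Mettl14-cKO cells (log2 1.18, 1.04 to 1.32). Pcna was called lower, at 3079 UMIs (62.7 CPM) and 2220 UMIs (45.6 CPM; log2 -0.46, -0.54 to -0.38). The clamp loader subunit Rfc2 (1967 and 1942 UMIs, log2 0.00), the polymerase alpha subunit Pola1 (467 and 481 UMIs, log2 0.06), the primase Prim1 (549 and 477 UMIs, log2 -0.19), the polymerase delta subunit Pold3 (2356 and 2181 UMIs, log2 -0.10) and Dscc1 of the alternative clamp loader (31 and 32 UMIs, log2 0.06) had no call.

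Among the nucleotide genes, the salvage enzyme thymidine kinase Tk1 had the largest ratio of all 42 members, at 30 UMIs (0.611 CPM, 0.412 to 0.872) in control and 195 UMIs (4.01, 3.47 to 4.61) in Mettl14-cKO cells (log2 2.71). The small subunit of ribonucleotide reductase, Rrm2, whose level follows S phase, stood at 64 and 190 UMIs (log2 1.58) and the uracil glycosylase Ung at 74 and 120 UMIs (log2 0.71). The large subunit Rrm1 (1144 and 990 UMIs, log2 -0.19) and thymidylate synthase Tyms (705 and 729 UMIs, log2 0.06) had no call.

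Chromatin genes were split. Uhrf1, which recognises hemimethylated DNA behind the fork, stood at 35 and 110 UMIs (log2 1.67), and Cdca7, the partner of the remodeller Hells, at 130 and 321 UMIs (log2 1.32). The chromatin ATPase Atad2 was also called higher, at 301 and 426 UMIs (log2 0.51). Nasp, a chaperone of histone H1 and H3-H4, had the lowest ratio of all members. It stood at 5087 UMIs (104 CPM) in control and 3522 UMIs (72.4 CPM) in Mettl14-cKO cells (log2 -0.52, -0.58 to -0.45). Hells (log2 0.28), the chromatin assembly subunit Chaf1b (0.48), the histone mRNA-binding protein Slbp (-0.01), Casp8ap2 (0.14), which is needed for histone gene expression, and the histone H2B ubiquitin ligase Ubr7 (-0.22) had no call.

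In the checkpoint and repair group the exonuclease Exo1 (21 and 79 UMIs, log2 1.93), the helicase Brip1 (18 and 57 UMIs, log2 1.68), the checkpoint adaptor Clspn (149 and 240 UMIs, log2 0.70) and the recombination cofactor Rad51ap1 (149 and 221 UMIs, log2 0.58) were called higher, and Wdr76 (522 and 380 UMIs, log2 -0.44) lower. Tipin of the fork protection complex (2844 and 2357 UMIs, log2 -0.26), the deubiquitinase of PCNA and FANCD2 Usp1 (2297 and 2621 UMIs, log2 0.20) and the RecQ helicase Blm (734 and 781 UMIs, log2 0.10) had no call. Of the 4 regulators, Dtl, the adaptor that targets CDT1 and p21 for degradation on PCNA, was called higher at 36 UMIs (0.733 CPM) and 159 UMIs (3.27 CPM; log2 2.16). Cyclin E2 (Ccne2, 290 and 258 UMIs, log2 -0.16), the repressor E2f8 (23 and 40 UMIs, log2 0.81) and geminin (Gmnn, 649 and 645 UMIs, log2 0.00) had no call. The 4 largest ratios, those of Tk1, Dtl, Exo1 and Brip1, belonged to members with 18 to 36 control UMIs, and the 3 members called lower had 522 or more.

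**Figure D1:**
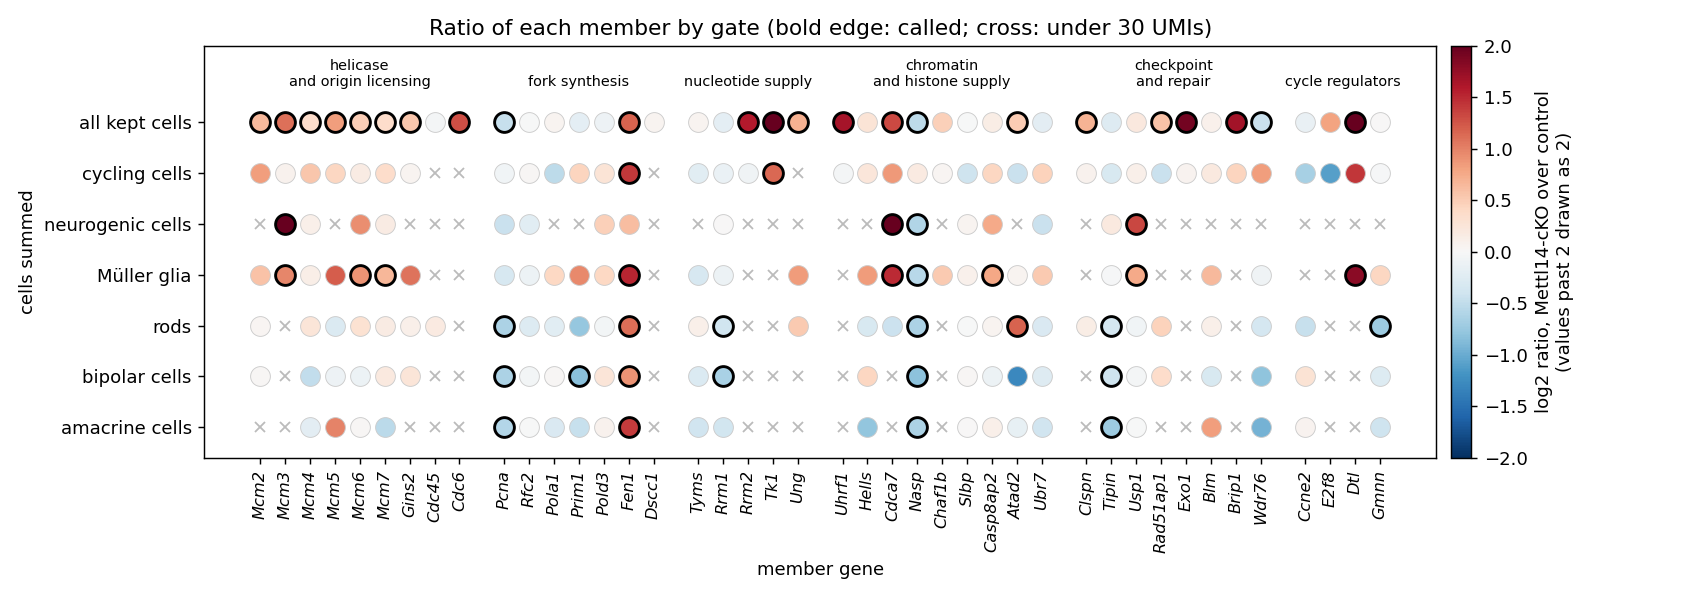
Log2 ratio of each member (columns, grouped by role), Mettl14-cKO over control, in the summed cells of each gate (rows, gated by marker genes); colour gives the ratio, a bold edge marks a called member and a cross a member under 30 UMIs. The top row holds 20 bold red and 3 bold blue points, Fen1 is red in every row, and Nasp is blue in every row except that of cycling cells.

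Promoter sequences of the members were read from RefSeq on GRCm38.p6 (250 bases before to 50 after the annotated start), where 32 of the 42 had an entry. Dscc1, Gins2, Exo1, Ccne2, Atad2, Tipin, Gmnn, Usp1, Rfc2 and Mcm4 had none. They were searched on both strands, with overlaps allowed, for the E2F octamers TTTCCCGC, TTTCGCGC, TTTGCCGC and TTTGGCGC. An octamer stood in the promoter of 14 of the 32 matched members (43.8%), beside 2.605% of all 27025 genes with a promoter of this length, where a gene with several promoters counts if any of them holds one. The 5-base motif CCAAT stood in 22 of the 32 (68.8%), beside 41.1% of all genes. An octamer was found in 9 of the 16 matched members called higher over all kept cells, in 0 of the 3 called lower and in 5 of the 13 without a call. A match is a description of the letters in this window and does not show a bound site. The promoters printed are those of 4 of the 6 members called higher both over all kept cells and in Müller glia, the ones with 1 promoter entry, and of the 2 members called lower with most UMIs. The other pair, Mcm7 and Fen1, have 2 entries each, and an octamer was found for Mcm7 and not for Fen1. Capitals mark the octamers, which read GCGGGAAA or GCGCGAAA where the match is on the other strand. In Mcm3 (chr1:20820263-20820562, minus strand) 2 octamers lie just after the start, and in Mcm6 (chr1:128359656-128359955, minus strand) 2 of 3 overlap. Dtl (chr1:191575495-191575794, minus strand) and Cdca7 (chr2:72475969-72476268, plus strand) hold 1 each. The promoters of Nasp (chr4:116627902-116628201, minus strand) and Pcna (chr2:132253131-132253430, minus strand) hold none of the 4 octamers in this window.
Mcm3: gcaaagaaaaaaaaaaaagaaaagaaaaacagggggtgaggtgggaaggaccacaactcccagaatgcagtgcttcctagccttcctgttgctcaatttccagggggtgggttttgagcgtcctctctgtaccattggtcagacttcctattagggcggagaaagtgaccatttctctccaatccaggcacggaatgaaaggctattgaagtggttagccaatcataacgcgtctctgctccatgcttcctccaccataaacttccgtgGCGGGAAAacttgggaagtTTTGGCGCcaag
Mcm6: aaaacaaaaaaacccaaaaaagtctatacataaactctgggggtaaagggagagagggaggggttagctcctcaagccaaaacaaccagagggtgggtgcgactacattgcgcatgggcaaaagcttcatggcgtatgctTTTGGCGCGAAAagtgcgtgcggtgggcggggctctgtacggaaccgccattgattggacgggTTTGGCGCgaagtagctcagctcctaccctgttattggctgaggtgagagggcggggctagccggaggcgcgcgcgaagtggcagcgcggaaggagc
Dtl: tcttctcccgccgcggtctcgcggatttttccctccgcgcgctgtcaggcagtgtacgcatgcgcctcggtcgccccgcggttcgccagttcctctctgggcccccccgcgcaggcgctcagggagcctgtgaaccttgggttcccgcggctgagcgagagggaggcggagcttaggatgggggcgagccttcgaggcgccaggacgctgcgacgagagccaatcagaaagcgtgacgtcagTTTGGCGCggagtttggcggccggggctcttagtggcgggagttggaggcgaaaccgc
Cdca7: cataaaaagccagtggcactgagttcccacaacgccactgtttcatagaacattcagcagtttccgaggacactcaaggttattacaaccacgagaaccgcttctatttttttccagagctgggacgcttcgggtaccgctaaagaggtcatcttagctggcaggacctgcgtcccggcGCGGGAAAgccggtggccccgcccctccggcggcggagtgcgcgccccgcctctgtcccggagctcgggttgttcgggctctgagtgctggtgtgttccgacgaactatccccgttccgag
Nasp: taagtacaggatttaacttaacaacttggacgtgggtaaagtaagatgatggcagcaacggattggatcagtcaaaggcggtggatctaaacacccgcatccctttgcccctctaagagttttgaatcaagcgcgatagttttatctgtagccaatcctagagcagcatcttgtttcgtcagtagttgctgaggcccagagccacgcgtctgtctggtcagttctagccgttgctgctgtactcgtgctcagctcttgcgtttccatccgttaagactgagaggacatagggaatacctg
Pcna: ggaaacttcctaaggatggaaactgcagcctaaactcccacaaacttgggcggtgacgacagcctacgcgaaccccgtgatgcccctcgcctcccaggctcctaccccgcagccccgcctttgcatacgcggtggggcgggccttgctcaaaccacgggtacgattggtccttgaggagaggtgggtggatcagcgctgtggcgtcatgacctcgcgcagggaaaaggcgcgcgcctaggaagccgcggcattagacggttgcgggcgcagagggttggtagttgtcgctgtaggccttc

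Cells were then gated by marker genes, none of which is a member. A cycling cell had UMIs of at least 2 of the 5 genes Mki67, Top2a, Cdk1, Ube2c and Cenpf, which are expressed mostly in S, G2 and M phase. Neurogenic cells, those committed to become neurons, had at least 2 of 7 genes such as Neurog2 and Atoh7, and Müller glia at least 4 of 8. Rods (at least 5 of 8), bipolar cells (at least 3 of 9) and amacrine cells (at least 3 of 7) made up the post-mitotic neurons. Cells that met several of the gates other than cycling, or none, or that expressed genes from outside the retinal lineage, were counted apart.

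Cycling cells took a larger share of the Mettl14-cKO library than of the control library, and so did the replication transcripts read from them. They were 42 of the control cells (0.397%, 0.286 to 0.536%) and 207 of the Mettl14-cKO cells (1.74%, 1.52 to 2.0%). They held 2.49% (2.33 to 2.66%) of member UMIs in control and 10.6% (10.3 to 10.9%) in Mettl14-cKO cells. Post-mitotic neurons, 61.8% and 43.7% of the cells, held 55.9% and 37.4% of member UMIs. Müller glia, 7.14% and 10.9% of the cells, held 5.36% and 10.2%, and neurogenic cells, 132 and 348 in number, held 1.13% and 3.53%. Cells meeting no gate, 16% in control and 31.2% in Mettl14-cKO, held 11.7% and 20.1% of member UMIs. In both libraries most member UMIs came from cells outside the cycling gate.

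**Figure D2:**
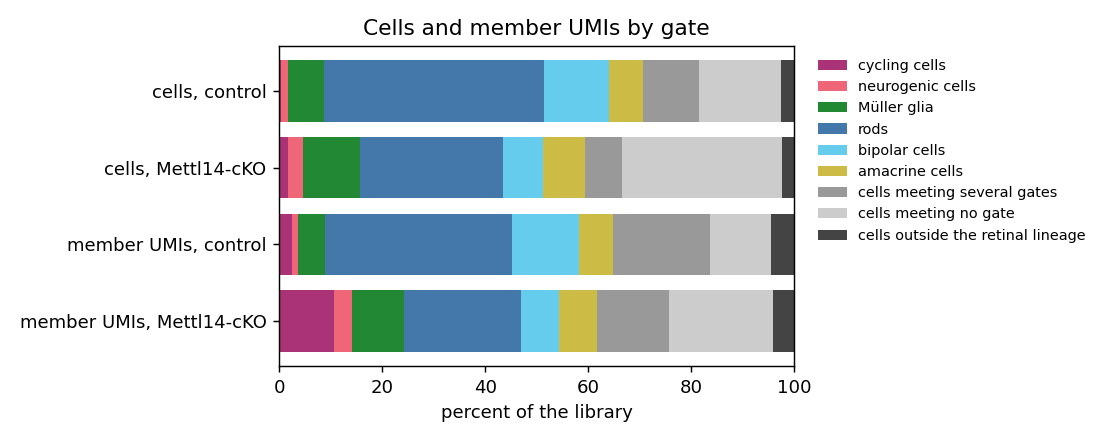
Percent of kept cells (upper bars) and of member UMIs (lower bars) in each gate, per library. Cycling cells hold 2.49% of control and 10.6% of Mettl14-cKO member UMIs, and the rod, bipolar and amacrine segments together hold 55.9% and 37.4%.

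Without the cycling gate the summed ratio lay below 1. The remaining cells held 690 CPM of members (683 to 698) in control and 653 (646 to 660) in Mettl14-cKO, a ratio of 0.946 (0.931 to 0.960). Of 41 measured members 14 were called higher, against 18.8% of genes, and 6 lower, against 18.7% of genes. Tk1 stood at 14 and 52 UMIs in these cells (log2 1.93), Dtl at 31 and 105 (log2 1.80), Exo1 at 13 and 45 (log2 1.83), Rrm2 at 31 and 65 (log2 1.11) and Uhrf1 at 21 and 55 (log2 1.43). All 5 were called higher outside the gate as well, but Tk1, Exo1 and Uhrf1 reached the minimum of UMIs only with their Mettl14-cKO UMIs. Mcm4, Cdc6, Atad2, Clspn, Rad51ap1 and Brip1 had no call there, and Prim1, Tipin and Gmnn joined Pcna, Nasp and Wdr76 as called lower.

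The members differed in how far they were restricted to cycling cells. In the Mettl14-cKO library the level of each of the 42 members was higher in cycling cells than in post-mitotic neurons, with an interval of the ratio above 1. In the control library this held for 38, and not for Cdc6, Pold3, Ubr7 and Wdr76. E2f8 was the extreme, with 32 of 40 Mettl14-cKO UMIs (80.0%) in cycling cells and 0 in post-mitotic neurons of either library (upper Poisson bounds 0.131 and 0.170 CPM). Tk1 had 16 UMIs in control cycling cells and 3 in neurons, and 143 and 10 in Mettl14-cKO. Pcna, a marker of proliferation in many tissues, had only 46 of its 3079 control UMIs (1.49%) and 177 of 2220 Mettl14-cKO UMIs (7.97%) in cycling cells, and its level there was 2.35 times (1.71 to 3.14) and 3.47 times (2.93 to 4.08) that of neurons. Nasp was alike, at 1.16% and 7.67%. The median share of a member's Mettl14-cKO UMIs that lay in cycling cells was 23.7% over the 20 members called higher, 10.9% over the 19 without a call and 7.97% over the 3 called lower.

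**Figure D3:**
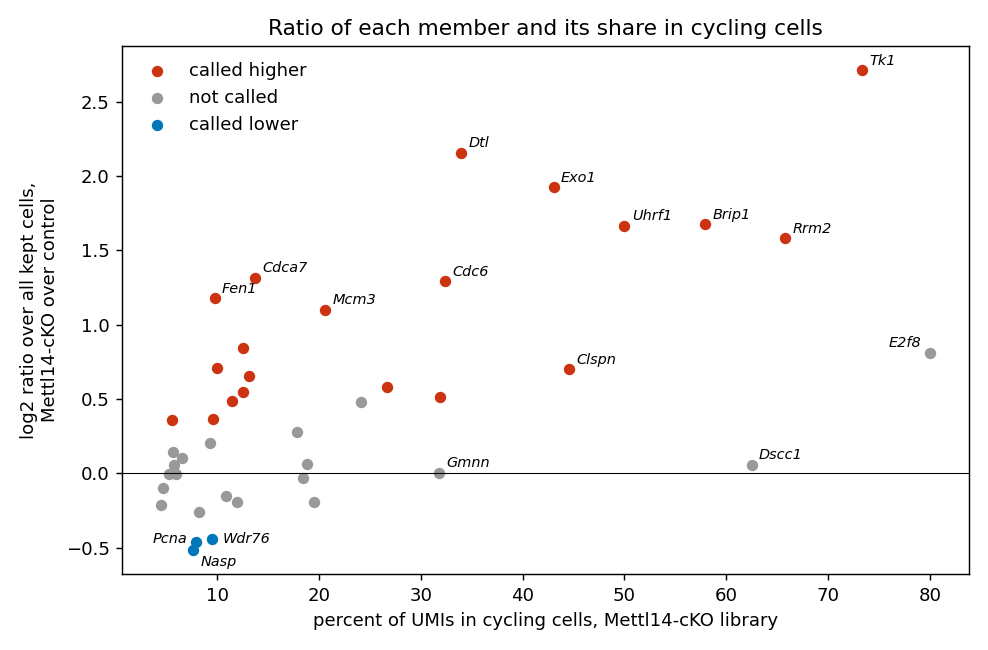
Each point is a member: the percent of its Mettl14-cKO UMIs that lie in cycling cells (horizontal) and its log2 ratio over all kept cells, Mettl14-cKO over control (vertical), coloured by call. Tk1 and Rrm2 lie at 73.3% and 65.8% with log2 2.71 and 1.58, whereas Pcna and Nasp lie at 7.97% and 7.67% with log2 -0.46 and -0.52, and Fen1 at 9.78% with log2 1.18.

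Within the cycling gate few members were called. Members summed to 2840 CPM (2653 to 3036) in control and 3002 (2905 to 3100) in Mettl14-cKO cycling cells, a ratio of 1.06 (0.981 to 1.14). Of 38 measured members 2 were called higher, against 6.17% of genes, and 0 lower, against 5.17% of genes. Fen1 stood at 13 UMIs (42.9 CPM) in control and 140 UMIs (115 CPM) in Mettl14-cKO cycling cells (log2 1.42, 0.60 to 2.36). Tk1 stood at 16 UMIs (52.8 CPM) and 143 UMIs (117 CPM; log2 1.15, 0.40 to 2.0). Fen1 and Tk1 both reached the minimum of UMIs only with their Mettl14-cKO UMIs.

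For the other members the 42 control cells gave wide intervals. All 6 MCM subunits had ratios above 1 whose intervals included 1, from Mcm3 (15 and 64 UMIs, log2 0.08) and Mcm6 (14 and 63, log2 0.16) through Mcm7 (20 and 104, log2 0.37), Mcm5 (5 and 27, log2 0.42) and Mcm4 (10 and 59, log2 0.55) to Mcm2 (5 and 36, log2 0.84). Pcna stood at 152 and 145 CPM (log2 -0.07) and Nasp at 195 and 221 (log2 0.18), so neither of these had a call here. The lowest ratios among members with at least 100 UMIs were those of Atad2 (46 and 136 UMIs, log2 -0.45), Slbp (44 and 133, log2 -0.41), Tipin (60 and 194, log2 -0.32) and Tyms (40 and 137, log2 -0.23), also without a call. Usp1, the checkpoint gene with most UMIs in these cells (56 and 245, log2 0.12), and Gmnn (52 and 205, log2 -0.03) had no call. Mettl14 had 11 and 24 UMIs in these cells (log2 -0.88, -1.97 to 0.29) and Cdkn1a 5 and 110 UMIs (log2 2.45).

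The make-up of the cycling gate differed between the libraries. A neuron gate was also met by all but 21 of the 42 control and all but 171 of the 207 Mettl14-cKO cycling cells, and all 8 rod markers were found, at 8955 and 4602 CPM. In the 21 and 171 cycling cells that met no neuron gate, members summed to 4848 CPM (4437 to 5286) and 3780 (3648 to 3916). That ratio was 0.780 (0.710 to 0.858), so the direction of the summed level turned. Of 38 measured members 0 were then called higher (4.31% of genes) and 2 lower (3.96% of genes), Atad2 and E2f8. Neither Fen1 nor Tk1 was called in this smaller set. The part of these neuron transcripts in the levels of cycling cells was not tested.

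Genes of G2 and M phase, 45 of which were listed beside the members, had a summed ratio of 0.970 (0.937 to 1.01) in cycling cells. Over all kept cells 29 of these 45 were called higher (64.4%, beside 19.4% of all genes) and 2 lower (4.44%, beside 18.6%). Of 55 other replication genes, 53 were measured over all kept cells and 11 were called higher and 5 lower (9.43%, beside 18.6% of all genes). Their median log2 ratio was 0.03. Those called higher included E2f1, the histone chaperone genes Asf1b and Chaf1a and the licensing kinase subunit Dbf4, and those called lower the single-strand binding subunit Rpa1 and the polymerase subunits Pola2, Pold1 and Pold2. In cycling cells 2 of 37 measured were called higher (Brca2 and Dbf4; 5.41%, near the 6.17% of all genes there) and 1 lower (Ccna2; 2.70%, beside 5.17%). For these other replication genes the share called higher over all kept cells, 20.8%, was near the 19.4% of all genes.

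In neurogenic cells the replication genes stood at 709 CPM (640 to 782) in the 132 control cells and 870 (822 to 920) in the 348 Mettl14-cKO cells, a ratio of 1.23 (1.10 to 1.38). With these few cells 16 of the 42 members could be measured, and 3 were called higher (5.61% of genes) and 1 lower (6.0% of genes). Mcm3 and Cdca7 reached the minimum of 30 UMIs through the Mettl14-cKO library, so for these genes a call was open in that direction only. With at least 1 UMI in each library in place of that minimum, 2 of 27 members were called higher (3.39% of genes) and 1 lower (4.10% of genes). Mcm3 was read in 0 UMIs in control and 35 UMIs (24.9 CPM) in Mettl14-cKO cells. With the control count set to a floor of 3 the ratio was 4.58, a point value and not a lower bound. Cdca7 had 1 and 38 UMIs, a ratio of 14.9 (2.52 to 605), and Usp1 15 and 96 UMIs (27.2 and 68.3 CPM; log2 1.33). Nasp was lower, at 97 and 163 UMIs (176 and 116 CPM; log2 -0.60).

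Among the other MCM genes Mcm7 had 42 and 120 UMIs (log2 0.17), Mcm6 7 and 34 (log2 0.93) and Mcm4 8 and 22 (log2 0.11), without a call, while Mcm2 (3 and 22 UMIs) and Mcm5 (0 and 11) were under the minimum. Pcna had 29 and 54 UMIs (log2 -0.45), Tipin 29 and 85 (log2 0.20), Casp8ap2 23 and 99 (log2 0.76) and Fen1 12 and 47 (log2 0.62), none of them called. Tk1 and E2f8 were at 0 UMIs in the neurogenic cells of both libraries. The same 4 calls were made in the 127 and 329 neurogenic cells without any UMI of a cycling gene (5.47% of genes higher, 6.28% lower). With Gadd45g, which also responds to stress, taken out of the gate, 47 and 135 cells and 5 measured members were left and none was called; Mcm3 then had 0 and 15 UMIs, Cdca7 0 and 21 and Usp1 7 and 42. Mettl14 had 21 and 25 UMIs in neurogenic cells (log2 -1.10) and Cdkn1a 29 and 270 (log2 1.87). Ribosomal protein genes took 12.8% of control and 17.0% of Mettl14-cKO UMIs in these cells, and their part in the ratios was not tested.

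In Müller glia, which are among the last cells to leave the progenitor pool, the summed levels of the helicase group (ratio 1.56, 1.34 to 1.82), of the checkpoint and repair group (1.29, 1.13 to 1.48) and of the 4 cycle regulators (1.72, 1.21 to 2.49) stood higher in the Mettl14-cKO library. The intervals included 1 for fork synthesis (ratio 1.10), for chromatin and histone supply (1.08, 0.979 to 1.18) and for nucleotide supply (interval 0.827 to 1.26). The Müller glia gate was also met by 30 of the 42 control (71.4%) and 152 of the 207 Mettl14-cKO cycling cells (73.4%), which were counted as cycling. Its genes alone thus do not set glia apart from cycling cells. Members summed to 686 CPM (655 to 718) in 755 control cells and 819 (792 to 847) in 1297 Mettl14-cKO cells, a ratio of 1.19 (1.13 to 1.26). Of 30 measured members 8 were called higher, against 14.7% of genes, and 1 lower, against 10.6% of genes, with a median log2 ratio of 0.56 over the members and 0.08 over all measured genes. Dtl had 9 UMIs (3.33 CPM) in control and 50 UMIs (11.6) in Mettl14-cKO cells (log2 1.80, 0.76 to 3.01). Fen1 had 28 UMIs (10.4 CPM) and 128 (29.7; log2 1.52), and Cdca7 18 (6.67 CPM) and 81 (18.8; log2 1.5). The helicase subunits Mcm3 (26 and 82 UMIs, log2 0.98), Mcm6 (26 and 77, log2 0.89) and Mcm7 (87 and 219, log2 0.66) were called, and Casp8ap2 (92 and 251 UMIs, log2 0.77) and Usp1 (103 and 279, log2 0.76) as well. Dtl, Fen1, Cdca7, Mcm3 and Mcm6 had under 30 control UMIs and reached the minimum of 30 only with their Mettl14-cKO UMIs.

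Mcm5 (10 and 37 UMIs, log2 1.21), Mcm2 (20 and 48, log2 0.59) and Mcm4 (54 and 94, log2 0.13) had ratios above 1 without a call. Nasp was lower (342 and 373 UMIs; 127 and 87 CPM; log2 -0.55), and Pcna (152 and 192 UMIs, log2 -0.34), Tyms (68 and 86, log2 -0.33) and Rrm1 (68 and 100, log2 -0.12) followed without a call. Of the 7 members called higher here whose promoter was matched, 6 hold an E2F octamer in the window shown above for Mcm3, Mcm6, Dtl and Cdca7. Fen1 is the exception. Over all 32 matched members 14 hold one (43.8%). Mcm5, Pola1, Pold3, Hells and Ubr7 also hold one and had no call here. A link between octamer and ratio was not tested. Tk1 had 1 and 16 UMIs and E2f8 1 and 3 in these cells, both under the minimum.

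The Müller glia were summed again without any cell that had a UMI of a cycling gate gene. In the remaining 728 and 1205 cells the members summed to 641 (611 to 673) and 745 (719 to 773) CPM, a ratio of 1.16 (1.09 to 1.24). Of 27 measured members 6 were called higher (14.4% of genes) and 1 lower (10.2% of genes). Cdca7 had 13 and 66 UMIs there (log2 1.74), Dtl 7 and 41 (log2 1.95), Fen1 27 and 108 (log2 1.40), Mcm7 80 and 186 (log2 0.61), Usp1 99 and 229 (log2 0.61) and Casp8ap2 89 and 226 (log2 0.74), all called. Cdca7, Dtl and Fen1 again reached the minimum only with their Mettl14-cKO UMIs. Mcm3 (20 and 59 UMIs, log2 0.96) and Mcm6 (23 and 57, log2 0.71) had no call with these fewer UMIs. Requiring 5 of the 8 glial genes left 5 members called higher and 2 lower. Summed Müller glia markers, all 8 of them detected, stood at 17011 CPM in control and 11109 in Mettl14-cKO cells of the gate, and ribosomal protein genes took 10.9% and 14.8% of UMIs. Their part in the ratios was not tested. Mettl14 had 70 and 74 UMIs (log2 -0.59) and Cdkn1a 39 and 505 (log2 3.02).

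In post-mitotic neurons, which no longer replicate DNA, the summed level of the members was lower in the Mettl14-cKO library. They summed to 683 CPM (673 to 693) in 6537 control cells and 598 (588 to 608) in 5183 Mettl14-cKO cells, a ratio of 0.876 (0.856 to 0.895). Of 33 measured members 2 were called higher, against 17.8% of genes, and 7 lower, against 18.1% of genes, so the share called lower, 21.2%, was near the background. Nasp had 2655 and 1292 UMIs (93.9 and 59.7 CPM; log2 -0.65), Gmnn 373 and 182 (log2 -0.65) and Pcna 1828 and 905 (64.7 and 41.8 CPM; log2 -0.63). Wdr76 (log2 -0.55), Prim1 (-0.48), Rrm1 (-0.46) and Tipin (-0.44) were the others called lower. Nasp, Pcna and Tipin alone held 31.7% of member UMIs in control neurons and 24.1% in Mettl14-cKO neurons, and without these 3 genes the summed ratio was 0.972 (0.947 to 0.998). All 3 were called lower in these same cells, so leaving them out raises the ratio by design. Casp8ap2, with 1740 control UMIs beside 1628 of Tipin, was left in. In the same cells summed rod markers stood at 20799 and 14067 CPM, bipolar markers at 1578 and 830, amacrine markers at 355 and 578 and Müller glia markers at 271 and 571, with every gene of these lists detected in both libraries. Mitochondrial genes took 3.98% and 3.04% of UMIs, and ribosomal protein genes 9.57% and 10.7%. The part of these differences in the member ratios was not tested.

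Fen1 (361 and 605 UMIs, log2 1.13) and Atad2 (110 and 136, log2 0.69) were called higher in neurons. None of the helicase subunits had a call: Mcm7 had 751 and 596 UMIs (log2 0.05), Mcm6 169 and 145 (log2 0.16), Mcm4 231 and 179 (log2 0.02), Mcm5 56 and 51 (log2 0.25) and Mcm2 84 and 64 (log2 -0.01). Mcm3 had 29 and 13 UMIs (log2 -0.77, -1.84 to 0.22), without a call. Rad51ap1 had 56 and 57 UMIs (log2 0.41) without a call. Mettl14 had 824 and 327 UMIs (log2 -0.95) and Cdkn1a 578 and 2539 (log2 2.52).

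Each neuron type was also summed on its own. In rods the members summed to 661 and 590 CPM (ratio 0.893, 0.868 to 0.918), with 2 of 31 called higher (15.3% of genes) and 5 lower (18.5%). In bipolar cells the sums were 749 and 630 (ratio 0.841, 0.801 to 0.883), with 1 of 27 called higher (13.3% of genes) and 5 lower (13%). In amacrine cells they were 690 and 593 (ratio 0.859, 0.812 to 0.909), with 1 of 24 called higher (10.3% of genes) and 3 lower (7.00%). Fen1 was called higher and Nasp, Pcna and Tipin lower in each of the 3. Atad2 was called higher in rods (71 and 113 UMIs, log2 1.19) and had 25 and 7 UMIs in bipolar cells (log2 -1.28) without a call.

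**Figure D4:**
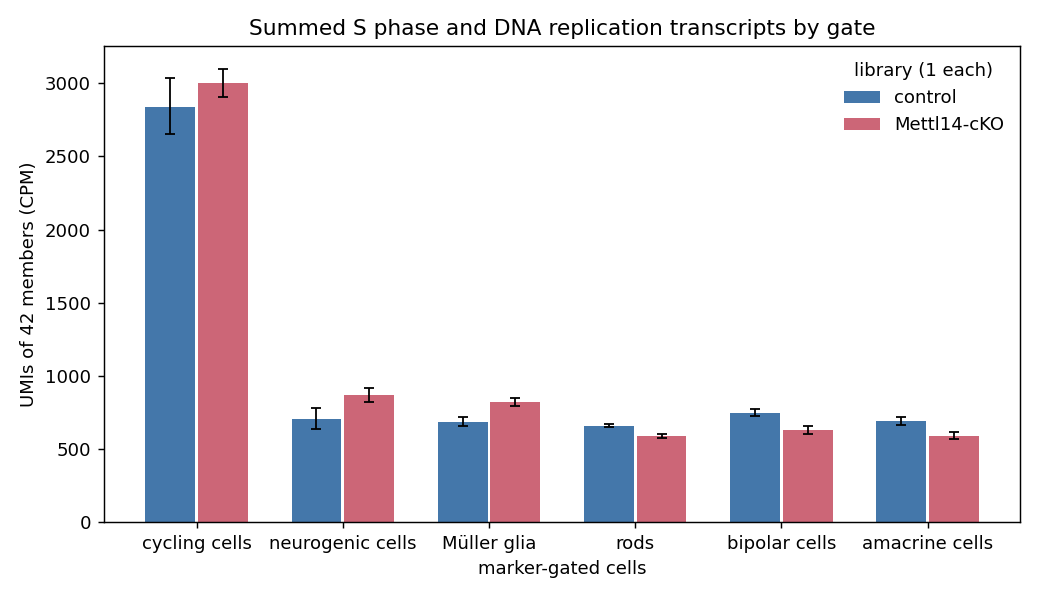
UMIs of the 42 members as CPM in each gate (bars; 1 library each), with exact 95% Poisson intervals that cover counting error only. Cycling cells stand at 2840 and 3002, neurogenic cells and Müller glia are higher in Mettl14-cKO, and rods, bipolar and amacrine cells are lower.

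The log2 ratio of Fen1 lay between 0.62 and 1.52 in cycling cells, neurogenic cells, Müller glia and neurons, and it was called in each of them except neurogenic cells. The gene (chromosome 19, 10199132 to 10204169, minus strand, GRCm38) overlaps Tmem258 on the opposite strand. Tmem258 had 16137 and 12695 UMIs over all kept cells, a ratio of 0.794 (0.776 to 0.813), the direction opposite to Fen1. Whether reads of both genes were separated by strand is not given in the sources used here. Nasp (chromosome 4, 116601052 to 116627941, minus strand) was called lower in neurogenic cells, Müller glia and neurons, at log2 -0.60, -0.55 and -0.65, and not in cycling cells. Mcm7, Gins2, Cdc45, Rfc2, Tk1, Ubr7 and Ccne2 also overlap a coding gene on the opposite strand, and no member overlaps one on its own strand. Afmid, opposite Tk1, had 1 and 24 UMIs in cycling cells (ratio 5.96, 0.972 to 245) and 10 and 29 in Müller glia (ratio 1.82, 0.861 to 4.18), the same direction as Tk1 with intervals that include 1, and 164 and 175 over all kept cells (ratio 1.08, 0.866 to 1.34). Its part in the counts of Tk1 was not tested.

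Whether single cells carried many replication transcripts at once was asked after thinning each cell to 1500 UMIs, which left out 1387 control and 1513 Mettl14-cKO cells with fewer. At least 5 of the 42 members were detected in 15 of 40 control cycling cells (37.5%, 22.7 to 54.2%) and 77 of 194 Mettl14-cKO cycling cells (39.7%, 32.8 to 46.9%). At least 3 were detected in 19 (47.5%, 31.5 to 63.9%) and 121 (62.4%, 55.1 to 69.2%) of these cells, with a median of 2 and 4 members a cell; the intervals overlap. In post-mitotic neurons, taken as the background of free RNA and chance detection, the shares were 0.251% (0.137 to 0.420%) and 0.241% (0.120 to 0.431%). Müller glia stood above that background in both libraries, with 11 of 661 cells (1.66%, 0.834 to 2.96%) and 33 of 1207 (2.73%, 1.89 to 3.82%), and these intervals overlap. Of neurogenic cells 0 of 124 in control reached 5 members, with an exact interval up to 2.93%, beside 10 of 330 (3.03%, 1.46 to 5.50%) in Mettl14-cKO. These 2 intervals overlap as well. Without thinning the shares were 76.2% and 76.3% in cycling cells, 15.2% and 19% in neurogenic cells, 7.55% and 10.2% in Müller glia and 14.8% and 12% in neurons, whose median depths were 5483 and 4949, 3587 and 3594.5, 3571 and 3313, and 3237 and 3138 UMIs.

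**Figure D5:**
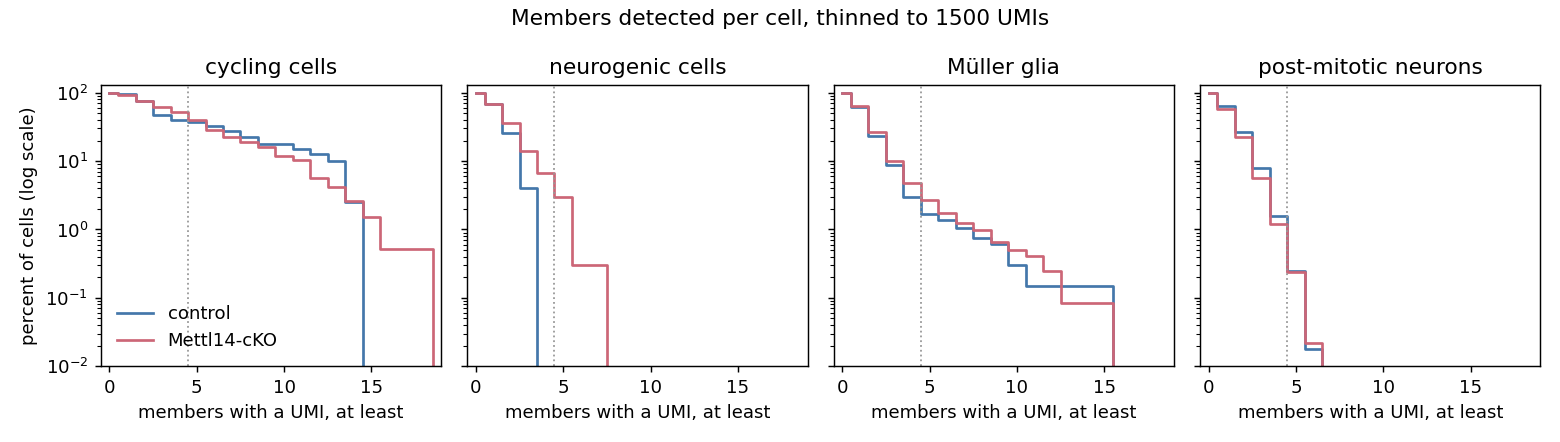
Percent of cells (log scale) with at least the given number of members detected, after thinning to 1500 UMIs, for each gate and library; the dotted line marks 5 members. The curves of cycling cells stand apart at 3 members (47.5% and 62.4%), with intervals that overlap, and meet near 5 (37.5% and 39.7%). Those of neurons lie at 0.251% and 0.241% at 5 members. In neurogenic cells the Mettl14-cKO curve extends further, to 3.03% at 5 members, where its interval overlaps that of control.

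Single genes were counted in the same thinned cells. Tk1 was detected in 2 of 40 control cycling cells (5.00%) and 32 of 194 Mettl14-cKO cycling cells (16.5%), in 0 neurogenic cells of either library, and in 0 of 5585 and 5 of 4564 neurons. Cdca7 was detected in 1 of 124 control and 18 of 330 Mettl14-cKO neurogenic cells (0.806% and 5.45%), and in 1.21% and 2.57% of Müller glia, beside 0.286% and 0.175% of neurons. Mcm3 was detected in 0 and 15 neurogenic cells (4.55% in Mettl14-cKO), in 1.06% and 2.32% of Müller glia and in 0.215% and 0.0876% of neurons. Nasp, in contrast, was detected in 32.5% and 27.3% of cycling cells, 25.8% and 14.2% of neurogenic cells, 16.9% and 10.6% of Müller glia and 13.7% and 8.92% of neurons. For Mcm3 and Cdca7 the shares in Müller glia were above those in neurons in both libraries. In neurogenic cells this held for Cdca7 in both libraries, with 1 cell in control, and for Mcm3 in Mettl14-cKO only.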

How the data were processed

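Single-cell RNA of dissociated retina was measured in 1 control and 1 Mettl14-cKO library. The authors deposited raw UMI counts, a number for each gene in each barcode, made with Cell Ranger 6.1.1 on mm10 per the submitters' processing notes. The annotation, the use of intronic reads and the counting strand are not given in the sources used here. Barcodes with at least 1000 UMIs, at least 500 genes and at most 15% mitochondrial UMIs were kept, which left 11361 control and 13480 Mettl14-cKO cells. Doublets were sought with Scrublet in scanpy 1.11.5, expecting 0.8% for every 1000 cells. It marked 6.92% and 12% of them, which were removed. The kept cells held 49098916 and 48637433 UMIs.

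Counts were summed per library and gate and scaled to 1000000 UMIs (CPM). Levels carry exact Poisson, ratios exact conditional and shares Clopper-Pearson 95% intervals (scipy 1.17.1), for counting error only. The calling of genes was tried before use on simulated Poisson counts drawn from a shared profile, with some genes raised or lowered. These counts hold no variation between libraries, so the trial cannot show how far such variation adds calls in the real data. The members, gates and lists were chosen with earlier results of these data known. Members named with values in each gate were the 4 highest and 4 lowest ratios among those with at least 100 UMIs, Mcm2 to Mcm7 and Pcna, and those with most UMIs of each role in cycling cells; others are named where a count or a called member asked for it, after their values were seen. Mettl14 and Cdkn1a are given once per group of cells. Alternatives concerned the cell filter, scaling, minimum UMIs, fold and gates; a gate without cells that have a cycling gene UMI, all cells without the cycling gate, and the sum without Nasp, Pcna and Tipin were added after seeing the data. Gene coordinates are from GENCODE and promoter sequences from RefSeq, both on GRCm38.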

Additional observations from a re-analysis of the deposited data

Results flagged for a closer look

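The summed level of the 42 members, Mettl14-cKO over control, went in opposite directions in different cells: the ratio was 1.23 (1.10 to 1.38) in neurogenic cells and 1.19 (1.13 to 1.26) in Müller glia, and 0.876 (0.856 to 0.895) in post-mitotic neurons. With 1 library per genotype the difference between these cell groups was not tested.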

How the results depend on the processing

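No paired analysis was possible because each genotype has 1 library, and for the same reason no replicate could be left out. Of 1089 alternative values of single members in 159 gene and gate pairs, 1049 kept their call or their lack of one. A call was lost in 32, gained in 8 and reversed in 0. Pairs without a call were 19 of 42 over all kept cells and 36 of 38 in cycling cells. They were 12 of 16 in neurogenic cells, 21 of 30 in Müller glia and 24 of 33 in neurons. Alternatives that put a member under the minimum of UMIs were not counted, as for Mcm3 and Cdca7 with the neurogenic gate without Gadd45g. Among counts of called genes, summed ratios and shares, 59 alternative values were classed as moved and 111 as the same. Depth left 26 members under 30 UMIs in neurogenic cells, 12 in Müller glia, 9 in neurons and 4 in cycling cells, where 42 control cells gave wide intervals. Free RNA could be gauged only from the neurons. A scaling without mitochondrial and ribosomal protein genes, or by the median of ratios, shifted log2 ratios by at most 0.061 in size.

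Over all kept cells the count of lower members was 0 at a 1.5-fold call and 6 without the cycling gate, where the summed ratio was 0.946. Without Nasp, Pcna and Tipin the summed ratio was 1.14 over all kept cells, 1.53 in neurogenic cells, 1.42 in Müller glia and 0.972 in neurons. These genes were taken out after the data were seen and were all called lower in neurons, so the higher ratios are no independent result. In neurons a 1.5-fold call left 3 lower members and scaling by the median of ratios gave a summed ratio of 0.896. In cycling cells that met no neuron gate 0 members were higher, 2 lower and the summed ratio was 0.780; with barcodes of at least 1000 UMIs as the only filter 1 was lower and the ratio was 0.977. Neurogenic cells had 1 higher member at a minimum of 100 UMIs, and 0 higher and 0 lower with the gate without Gadd45g. Müller glia had 5 higher and 2 lower members with at least 5 of 8 genes, and 0 lower at a 1.5-fold call. With barcodes of at least 1000 UMIs as the only filter, G2 and M phase genes had 1 higher and 5 lower in cycling cells, 1 higher in neurogenic cells and 0 lower in Müller glia, and other replication genes 1 higher in cycling cells and 5 higher in Müller glia. Under that filter control member UMIs lay at 2.27% in cycling cells, 5.08% in Müller glia and 52.5% in neurons, and Mettl14-cKO ones at 10.1% in cycling cells, 3.17% in neurogenic cells, 9.33% in Müller glia and 34.7% in neurons. The cycling share was 0.199% of control and 1.44% of Mettl14-cKO cells without those meeting a neuron gate, and for Mettl14-cKO 1.21% with at least 3 of 5 genes and 1.31% with cells thinned to 1500 UMIs. The share of control cells with at least 5 members was 16.7% in cycling cells and 0.0153% in neurons at 1000 UMIs, and with all UMIs 76.2% in cycling cells, 15.2% in neurogenic cells, 7.55% in Müller glia and 14.8% in neurons; with at least 3 members it was 47.5%, 4.03%, 8.77% and 7.82% in cycling cells, neurogenic cells, Müller glia and neurons. In Mettl14-cKO it was 23.7%, 0.575%, 1.46% and 0.0193% in cycling cells, neurogenic cells, Müller glia and neurons at 1000 UMIs, 76.3%, 19%, 10.2% and 12% with all UMIs, and 62.4%, 14.2%, 10.2% and 5.61% with at least 3 members; Müller glia stood at 1.77% under the lone filter of 1000 UMIs. The cause of these shifts was not tested.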
